A study of Mus musculus with 6 samples.

Results

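The stretch of mouse chromosome 5 around Abcb1b and Dbf4 holds the mouse P-glycoprotein genes with their neighbours, and 10 of its genes are described here, of 55334 gene IDs in the deposited table. They are, in order along the chromosome, Steap2, Steap1, Steap4, Sri, Dbf4, Slc25a40, Abcb1a, Abcb1b, Crot and Dmtf1, and they were taken by symbol. The stretch was picked because its genes had been seen to differ between the groups in these same libraries. The difference between the groups is therefore given for the 10 genes as a description, with no test. From the start of Steap2 to the end of Dmtf1 it spans 3.5 Mb (chr5:5664829-9161776, GENCODE M21 on GRCm38).

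The cells came from Lewis lung carcinoma, a cultured lung cancer line of the mouse, and carried green fluorescent protein (GFP). The JAG2KO group carried a guide RNA against Jag2, which encodes a Notch ligand. The Scramble group, its control, carried a scrambled guide. In both groups the cells were grown as tumours in the flanks of mice until endpoint, and 400000 GFP-positive, CD45-negative, DAPI-negative cells per sample were sorted for polyA RNA sequencing. The labels give no strain or age of the mice, and do not say whether the cells of a group were 1 clone or a mixed population. Each group had 3 libraries. Whether the libraries of a group came from different mice is not stated; the p-values then measure the spread between libraries alone, and that spread may be technical. The JAG2KO libraries are called by their column names, JagKO2, JagKO3 and JagKO4.

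P-glycoprotein is an ATP-driven pump in the cell membrane that exports many lipophilic drugs. Rodents carry a pair of genes for it, Abcb1a and Abcb1b, where humans carry a single gene. In cultured cells selected for drug resistance the pump is the classic overproduced protein, and sorcin, the product of Sri, was first described in such cells. The other genes of the stretch serve unrelated functions: Dbf4 activates the kinase that fires replication origins, and Slc25a40 encodes a mitochondrial carrier. Crot encodes a peroxisomal carnitine transferase, Dmtf1 a transcription factor of the Arf pathway, and the Steap genes encode membrane proteins of the metalloreductase family.

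Library totals ran from 37036772 to 42914376 counts in JAG2KO and from 39448304 to 43923565 counts in Scramble. A level of 3 counts was worth 0.068 to 0.0811 CPM, the counts of a gene scaled to its library's size. Jag2 RNA, at chr12:112907819-112929776, was scarce in every library. It had 0.514, 0.799 and 1.11 CPM in JagKO2, JagKO3 and JagKO4, against 1.52, 1.1 and 1.02 CPM in Scramble replicates 1, 2 and 3. The groups overlapped, and a log2 fold change of -0.58 (SE 0.39) did not pass edgeR's quasi-likelihood test (adjusted p = 0.318). A guide RNA can disable a gene without lowering its RNA, so this level does not check the labels. Of 10 lung epithelial markers, Nkx2-1, Sftpb and Sftpa1 had 0 counts in all libraries and Sftpc at most 2 counts in any, so these defining markers of the labelled lung cell type were at or near 0. The list summed to 284 to 339 CPM in JAG2KO and 389 to 399 CPM in Scramble, nearly all of it from the keratins Krt18 and Krt8, of which Krt8 fell in JAG2KO. T and NK cell markers summed to 0.623 to 2.77 CPM in JAG2KO and 1.01 to 1.34 CPM in Scramble. Ptprc, which encodes CD45, ran from 2.42 to 3.89 CPM in JAG2KO and from 2.09 to 2.24 CPM in Scramble.

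All 10 genes passed the low-count filter. In JAG2KO, 8 of them were called lower at an edgeR adjusted p under 0.05, while Steap1 and Steap4 were not called. Over all 16049 tested genes, 24.3% were called, 11.8% being higher and 12.5% lower. Since the genes were chosen on this contrast, nothing is read from their count against that share. The same 8 genes did not overlap between the groups, where 20.9% of all tested genes were lower without overlap and 40.3% did not overlap in either direction. Of the 10 genes 6 were also past 2-fold lower, beside 3.03% of all tested genes. The median log2 fold change of the 10 genes was -1.53, beside 0.0 over all tested genes. The 7 genes from Sri to Dmtf1, which lie within 1.12 Mb, were all lower. Their CPM summed to 345, 335 and 342 in JagKO2, JagKO3 and JagKO4, against 1244, 1271 and 1207 in Scramble replicates 1, 2 and 3. The 3 Steap genes summed to 227, 268 and 245 CPM in JagKO2, JagKO3 and JagKO4, against 286, 309 and 281 CPM in Scramble replicates 1, 2 and 3. In bulk RNA of sorted cells, fewer cells with a transcript and less of it per cell cannot be told apart.

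**Figure D1:**
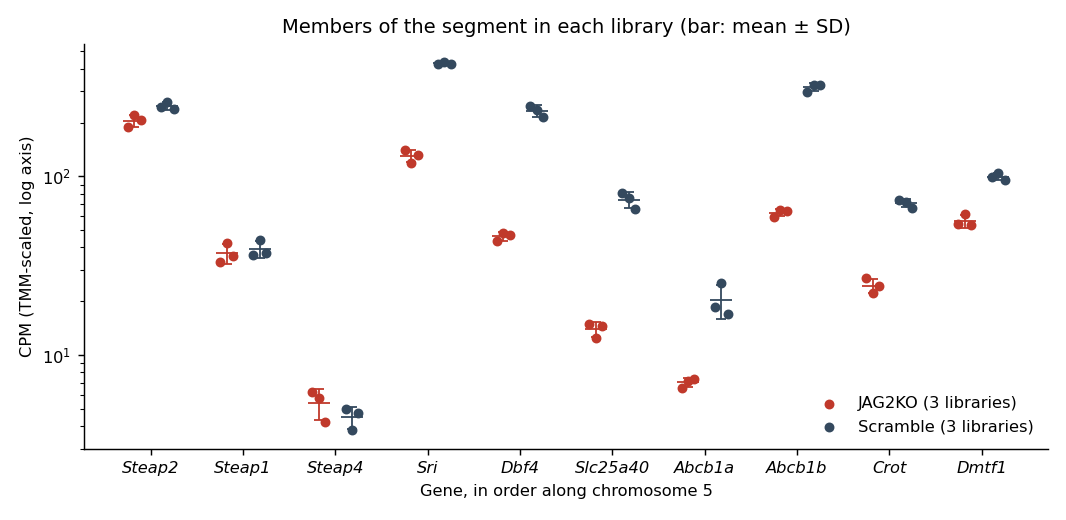
CPM of the 10 genes in each library, on a log axis, in order along chromosome 5, with JAG2KO left of Scramble; bars give the mean ± SD of 3 libraries. From Sri to Dmtf1 the JAG2KO points lie below all Scramble points, whereas for Steap1 and Steap4 the groups overlap.

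Abcb1b (ENSMUSG00000028970.9, chr5:8798147-8866315, plus strand) was the more abundant of the P-glycoprotein genes per length of exon, at 7.85 CPM per kb in JAG2KO and 39.5 in Scramble, against 1.28 CPM per kb in JAG2KO and 3.69 in Scramble for Abcb1a. It had 59.5, 64.6 and 64 CPM in JagKO2, JagKO3 and JagKO4, against 296, 326 and 324 CPM in Scramble replicates 1, 2 and 3. The highest JAG2KO library lay far under the lowest Scramble library, and each group was tight around its mean. The means were 62.7 ± 2.81 CPM in JAG2KO and 315 ± 16.5 CPM in Scramble (SD, n = 3 each), so JAG2KO held 19.9% of the Scramble level. The log2 fold change was -2.33 (SE 0.07), and it ran from -2.36 to -2.29 when each library was left out in turn. Per kilobase of exon, Abcb1b moved down the ranking of tested genes, standing at the 64.4th percentile in JAG2KO and the 92nd percentile in Scramble.

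Abcb1a (ENSMUSG00000040584.8, chr5:8660077-8748575, plus strand) is the form known for the capillary endothelium of the mouse brain. It had 6.57, 7.13 and 7.39 CPM in JagKO2, JagKO3 and JagKO4, against 18.6, 25.2 and 16.9 CPM in Scramble replicates 1, 2 and 3. Libraries of JAG2KO lay close together below all Scramble libraries, while Scramble replicate 2 stood above the other Scramble libraries. The means were 7.03 ± 0.419 CPM in JAG2KO and 20.2 ± 4.37 CPM in Scramble (SD, n = 3 each), a log2 fold change of -1.52 (SE 0.15). Leaving out each library in turn gave -1.64 to -1.33. Of 13 endothelial markers, 6 rose in JAG2KO (Pecam1, Cdh5, Kdr, Tie1, Vwf and Esam) and Eng fell. Their summed level ran from 133 to 156 CPM in JAG2KO and from 145 to 148 CPM in Scramble, with no marker at 0 in all libraries. Eng alone averaged 73.4 CPM in JAG2KO and 101 CPM in Scramble, so the sum mostly follows this marker and hides the rise of scarcer ones. Pecam1 averaged 14.3 CPM in JAG2KO and 6.37 CPM in Scramble, and Vwf 4.66 CPM in JAG2KO and 1.35 CPM in Scramble. The part of endothelial RNA in the Abcb1a level was not tested.

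Within each library, the ratio of Abcb1b to Abcb1a counts was 9.05, 9.06 and 8.67 in JagKO2, JagKO3 and JagKO4, against 15.9, 12.9 and 19.2 in Scramble replicates 1, 2 and 3. Scaled per kilobase of exon, the ratio was 6.12 ± 0.153 in JAG2KO and 11 ± 2.15 in Scramble (SD, n = 3 each). Abcb1b was thus the major form in both groups, by a smaller margin in JAG2KO, with no overlap between the groups. The transcripts of Abcb1b and Abcb1a were 86.5% identical over 4265 aligned bases, and 12.4% of the 75-base words of the Abcb1b transcript also occur in that of Abcb1a. Reads from such words could have been lost or given to either gene, since how multiply mapped reads were handled is not known here. Counts summed over the pair gave a log2 fold change of -2.27. Opposite-strand gene models overlap exons of each, Gm42686 over 553 bases of Abcb1a and Gm5106 over 143 bases of Abcb1b. The strand setting of the counting is likewise unknown.

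The promoter windows of the pair are shown because the genes share a function and a direction but differ in the motifs found at their starts. Each window runs from 250 bases before to 50 bases after the RefSeq start (GRCm38.p6), 5′ to 3′ on the gene's strand. Capitals mark CCAAT (the NF-Y motif; ATTGG on the other strand) and GGGCGG (the GC box; CCGCCC on the other strand), with no overlap between motifs.
Abcb1b, chr5:8797897-8798196, plus strand: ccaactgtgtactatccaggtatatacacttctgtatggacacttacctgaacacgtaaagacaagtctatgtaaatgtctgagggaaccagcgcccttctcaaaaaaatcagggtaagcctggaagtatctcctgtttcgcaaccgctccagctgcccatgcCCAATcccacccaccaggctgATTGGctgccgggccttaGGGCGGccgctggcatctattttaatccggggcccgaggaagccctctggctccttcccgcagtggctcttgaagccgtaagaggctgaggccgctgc
Abcb1a, chr5:8566841-8567140, plus strand: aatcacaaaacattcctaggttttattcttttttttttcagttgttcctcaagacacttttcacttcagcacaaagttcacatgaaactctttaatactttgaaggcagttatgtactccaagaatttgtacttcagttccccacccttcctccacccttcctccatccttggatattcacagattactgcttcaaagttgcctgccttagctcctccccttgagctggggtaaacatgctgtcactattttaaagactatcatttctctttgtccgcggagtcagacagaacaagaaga
In Abcb1b, CCAAT motifs stand at -87 and -66 and a GC box at -48, counted from the start base to the left end of the match. The Abcb1a window held neither motif, and its GC content was 40.3%, beside 55% for Abcb1b. The RefSeq start of Abcb1a lies 93.0 kb before its GENCODE start. Among 32851 RefSeq windows of 300 bases, 37.4% held CCAAT and 35.7% held GGGCGG on either strand. These matches are a description of letters, not of bound sites.

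Over the windows of the 10 genes, CCAAT was found for Steap2, Abcb1b and Crot, and GGGCGG for 7 genes. Steap2 had 3 windows to search. Dbf4 and Slc25a40 both count among the 7, but their windows overlap, and the 2 matches of Slc25a40 are sites also found for Dbf4. TGGGAA, a core of the motif of RBPJ, the DNA-binding partner of activated Notch, was found for Steap4 and Sri, and occurs in 25.6% of all windows. TGANTCA (AP-1) was found for Sri and occurs in 7.81% of all windows. CACGTG (E-box, 7.15% of all windows) and TTTNNCGC (E2F, 5.17% of all windows) were found for 0 of the 10 genes. None of the 6 motifs was found for all 8 genes called lower.

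Dbf4 (ENSMUSG00000002297.16, chr5:8396973-8422716, minus strand) encodes the regulatory subunit of the Cdc7 kinase, which phosphorylates the MCM helicase so that replication origins fire. It had 43.3, 48 and 47.1 CPM in JagKO2, JagKO3 and JagKO4, against 249, 234 and 215 CPM in Scramble replicates 1, 2 and 3. Libraries of JAG2KO were all low and close together, and the groups did not overlap. The means were 46.1 ± 2.49 CPM in JAG2KO and 232 ± 17 CPM in Scramble (SD, n = 3 each), with a log2 fold change of -2.33 (SE 0.08), and JAG2KO held 19.8% of the Scramble level.

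Slc25a40 (ENSMUSG00000054099.11, chr5:8422850-8454797, plus strand) starts next to Dbf4 on the other strand and is a paralog of Slc25a39, which serves mitochondrial glutathione import. It had 15, 12.4 and 14.5 CPM in JagKO2, JagKO3 and JagKO4, against 80.4, 75.5 and 65.7 CPM in Scramble replicates 1, 2 and 3. The groups lay far apart, and of the 10 genes Slc25a40 had the largest fold, at 18.9% of the Scramble level. The log2 fold change was -2.40 (SE 0.10). The RefSeq starts of Dbf4 and Slc25a40 are 122 bases apart, and their promoter windows share 221 bases, so the Dbf4 window shown next covers all bases between them. GGGCGG motifs, in capitals (CCGCCC on the other strand), stand at -231, -112 and -45 from the Dbf4 start, and its GC content was 74.7%.
Dbf4, chr5:8422667-8422966, minus strand: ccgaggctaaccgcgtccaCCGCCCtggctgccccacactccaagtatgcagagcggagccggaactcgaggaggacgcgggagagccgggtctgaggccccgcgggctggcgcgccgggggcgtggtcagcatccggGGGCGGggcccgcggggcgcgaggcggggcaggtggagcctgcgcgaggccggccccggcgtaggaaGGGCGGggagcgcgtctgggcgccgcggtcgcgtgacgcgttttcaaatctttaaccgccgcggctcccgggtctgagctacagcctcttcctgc
Within libraries, the ratio of Dbf4 to Slc25a40 counts overlapped between the groups, at 2.9, 3.88 and 3.24 in JagKO2, JagKO3 and JagKO4, against 3.09, 3.1 and 3.27 in Scramble replicates 1, 2 and 3. The ratio of Dbf4 to Abcb1b counts likewise overlapped, at 0.735 ± 0.00738 in JAG2KO and 0.74 ± 0.0898 in Scramble (SD, n = 3 each). These overlaps describe 6 libraries and do not show that the genes changed equally.

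**Figure D2:**
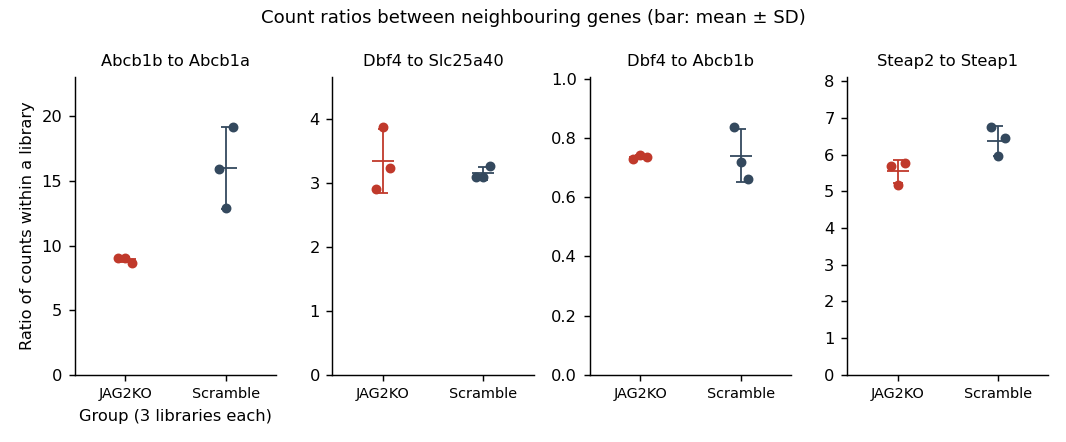
Ratios of counts between neighbouring genes within each library, with JAG2KO left of Scramble, 3 libraries each; bars give the mean ± SD and every axis starts at 0. Abcb1b to Abcb1a is lower in all JAG2KO libraries, at 8.93 ± 0.223 against 16 ± 3.13 in Scramble, whereas Dbf4 to Slc25a40 and Dbf4 to Abcb1b overlap.

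Sri (ENSMUSG00000003161.15, chr5:8046078-8069379, plus strand) encodes sorcin, a calcium-binding protein of the penta-EF-hand family that acts on ryanodine receptors. It had 140, 119 and 132 CPM in JagKO2, JagKO3 and JagKO4, against 427, 434 and 424 CPM in Scramble replicates 1, 2 and 3. Scramble was nearly flat and all JAG2KO libraries were low. The means were 130 ± 10.5 CPM in JAG2KO and 428 ± 5.41 CPM in Scramble (SD, n = 3 each), and the log2 fold change was -1.72 (SE 0.07). Per kilobase of exon Sri was the most abundant of the 10 genes in Scramble, at 88.3 CPM per kb, and Abcb1b came next at 39.5. In JAG2KO, Sri and Steap1 shared the top value of 26.9 CPM per kb.

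Crot (ENSMUSG00000003623.4, chr5:8966033-8997324, minus strand) encodes the carnitine transferase that lets medium-chain fatty acids leave peroxisomes. It had 26.9, 22.3 and 24.3 CPM in JagKO2, JagKO3 and JagKO4, against 74.1, 71.4 and 66.8 CPM in Scramble replicates 1, 2 and 3. The groups were well apart, with means of 24.5 ± 2.31 CPM in JAG2KO and 70.7 ± 3.69 CPM in Scramble (SD, n = 3 each) and a log2 fold change of -1.53 (SE 0.09). Gene models on the opposite strand (Gm37153, 166 bases) and on the same strand (Gm27941, 39 bases) overlap its exons, and both had 0 counts in every library.

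Dmtf1 (ENSMUSG00000042508.16, chr5:9118801-9161776, minus strand) encodes a Myb-like factor that binds D-type cyclins and activates the Arf promoter. It had 53.8, 61.9 and 53.1 CPM in JagKO2, JagKO3 and JagKO4, against 98.6, 105 and 95.6 CPM in Scramble replicates 1, 2 and 3. The libraries of the groups did not overlap, but the fold was the smallest among the 7 genes from Sri to Dmtf1, with JAG2KO at 56.4% of the Scramble level. Its log2 fold change was -0.83 (SE 0.08). Tmem243 lies on the opposite strand and shares 404 exonic bases with Dmtf1. Without a known strand setting, reads there could belong to either gene.

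Steap2 (ENSMUSG00000015653.13, chr5:5664829-5694578, minus strand) encodes a metalloreductase that reduces iron and copper. It had 188, 220 and 206 CPM in JagKO2, JagKO3 and JagKO4, against 244, 261 and 239 CPM in Scramble replicates 1, 2 and 3. All JAG2KO libraries were lower, by a small margin, with a log2 fold change of -0.28 (SE 0.07). The gene was called lower, but not without Scramble replicate 2, when the log2 fold change was -0.23 (SE 0.08). Per kilobase of exon its level was 16.8 CPM in JAG2KO and 20.4 CPM in Scramble, below that of Steap1 at 26.9 CPM in JAG2KO and 28.4 CPM in Scramble.

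Steap1 (ENSMUSG00000015652.9, chr5:5736317-5749326, minus strand), whose product lacks the NADPH-binding part of its relatives, had 33, 42.5 and 35.7 CPM in JagKO2, JagKO3 and JagKO4. In Scramble replicates 1, 2 and 3 it had 36.2, 43.8 and 37.2 CPM. The groups overlapped, and the log2 fold change was -0.08 (SE 0.11), with -0.19 to 0.02 when each library was left out in turn. The count ratio of Steap2 to Steap1 was lower in all JAG2KO libraries, at 5.55 ± 0.322 in JAG2KO and 6.38 ± 0.408 in Scramble (SD, n = 3 each).

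Steap4 (ENSMUSG00000012428.9, chr5:7960457-7982213, plus strand) encodes a metalloreductase known from adipose tissue and inflamed cells. It had 6.25, 5.72 and 4.2 CPM in JagKO2, JagKO3 and JagKO4, against 4.99, 3.79 and 4.76 CPM in Scramble replicates 1, 2 and 3. The groups overlapped, JagKO4 being lower than all but 1 Scramble library, and the log2 fold change was 0.26 (SE 0.20). Of 14 macrophage markers, 4 rose in JAG2KO (Lyz2, Mrc1, C1qa and C1qb) and Cd14 fell, with a summed level of 114 to 134 CPM in JAG2KO and 77.1 to 86.7 CPM in Scramble. Of 12 pericyte and fibroblast markers, 6 rose (Rgs5, Pdgfrb, Acta2, Col1a1, Col1a2 and Postn) and Fap fell, with a summed level of 1600 to 2625 CPM in JAG2KO and 1213 to 1379 CPM in Scramble. Col1a1, Dcn, Lum and Col1a2 averaged 564, 444, 353 and 327 CPM in JAG2KO and 301, 373, 279 and 171 CPM in Scramble. The sum mostly follows these genes, of which Dcn and Lum were not called. Col1a1 was highest in JagKO2, at 804 CPM. No marker of either list was at 0 in all libraries, and their part in the Steap4 level was not tested.

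The end of Steap4 and the start of Sri are 63.9 kb apart, and Steap4 before this gap overlapped between the groups whereas Sri after it did not. The count ratio of Sri to Steap4 was 22.4, 20.8 and 31.4 in JagKO2, JagKO3 and JagKO4, against 85.6, 115 and 89 in Scramble replicates 1, 2 and 3. Adam22, which lies next after Sri along the chromosome and encodes a membrane protein of the disintegrin family without protease activity, did not pass the test. It had 1.08, 0.852 and 1.85 CPM in JagKO2, JagKO3 and JagKO4, against 1.41, 1.97 and 1.86 CPM in Scramble replicates 1, 2 and 3 (log2 fold change -0.46, SE 0.35, edgeR adjusted p = 0.375).

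The other genes of the stretch were not on the list of 10, but the stretch itself was picked on these libraries. Of them, Tmem243 and Gm5106 also share exon bases with Dmtf1 and Abcb1b. Calls among these other genes are therefore not independent of that choice. Of 44 such annotated genes 9 could be tested, of which 4 fell in JAG2KO and 5 were not called, where 12.5% of all tested genes fell. The median log2 fold change of the 9 was -1.68, which is the value of the scarce, uncalled gene Gm15731 (SE 0.84). The 4 that fell were the protein-coding Rundc3b and Tmem243 and the non-coding Gm5106 and 7330423F06Rik. All have their left end (lowest coordinate) after that of Sri, where 6 genes were tested. The 3 tested genes whose left end lies before that of Sri, the pseudogenes Gm15459 and Tubb4b-ps1 and the antisense gene Gm15731, were not called (edgeR adjusted p = 0.255, 0.337 and 0.174). Gm15731, on the minus strand at chr5:8037294-8052707, runs across the start of Sri, so it does not lie wholly before Sri. Gm15459 passed only where no low-count filter was applied (adjusted p = 0.0139).

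Rundc3b (chr5:8490334-8622952), which encodes a RUN domain protein and lies between Slc25a40 and Abcb1a, had 0.216, 0.24 and 0.623 CPM in JagKO2, JagKO3 and JagKO4. In Scramble replicates 1, 2 and 3 it had 5.12, 3.1 and 4.3 CPM. The groups were far apart although the gene was scarce, with 44 counts over all JAG2KO libraries and 530 over all Scramble libraries. It fell by 3.50 on the log2 scale (SE 0.40), with an edgeR adjusted p of 6.77e-05. Tmem243 (chr5:9100668-9160986), a transmembrane protein gene overlapping Dmtf1, had 8.87, 8.65 and 8.87 CPM in JagKO2, JagKO3 and JagKO4, against 34.4, 28.9 and 41.5 CPM in Scramble replicates 1, 2 and 3. Libraries of JAG2KO were all low and nearly equal (log2 fold change -1.99, SE 0.13, edgeR adjusted p = 8.18e-07). The Tmem243 to Dmtf1 count ratio was 0.157 ± 0.0151 in JAG2KO and 0.353 ± 0.0801 in Scramble (SD, n = 3 each), so Tmem243 was the lower of the overlapping pair in relative terms in JAG2KO.

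Gm5106, antisense to the start of Abcb1b, had 0.406, 0.426 and 0.392 CPM in JagKO2, JagKO3 and JagKO4, against 2.83, 2.09 and 2.27 CPM in Scramble replicates 1, 2 and 3. It fell by 2.55 on the log2 scale (SE 0.32), with an edgeR adjusted p of 0.000163. The size of this fall was close to that of Abcb1b, at a log2 fold change of -2.33. Reads of the overlapping exons cannot be told apart without strand. 7330423F06Rik fell by 2.11 on the log2 scale (SE 0.54), with an edgeR adjusted p of 0.0136, and its adjusted p was 0.0512 without JagKO4 and 0.0547 without Scramble replicate 2. Abcb4, the relative of the P-glycoprotein genes that exports phospholipid into bile, lies between Abcb1b and Crot and was too scarce to test. It had 0.162, 0.319 and 0.0231 CPM in JagKO2, JagKO3 and JagKO4, against 0.227, 0.229 and 0.662 CPM in Scramble replicates 1, 2 and 3. Zfp804b and Tex47, both between Steap1 and Steap4, had 0 counts in every library.

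Outside the span from Steap2 to Dmtf1 the direction was mixed. Of the 15 tested genes before Steap2, 4 rose in JAG2KO (Gtpbp10, Gm8773, Akap9 and Gm43031) and 11 were not called, with a median log2 fold change of 0.09. Gtpbp10, a GTPase gene of the mitochondrial ribosome, had 22.8, 18.3 and 19.8 CPM in JagKO2, JagKO3 and JagKO4, against 14.4, 12.6 and 12.2 CPM in Scramble replicates 1, 2 and 3. All JAG2KO libraries were higher (log2 fold change 0.63, SE 0.12, edgeR adjusted p = 0.00227). The gene model Gm8773 rose by 0.89 on the log2 scale (SE 0.29) with an edgeR adjusted p of 0.0402, a call lost without JagKO3, JagKO4 or Scramble replicate 1 or 2 (adjusted p = 0.0899, 0.092, 0.0977 and 0.0566). Cfap69, a gene of the sperm tail and cilia, had a log2 fold change of 0.12 (SE 0.15, adjusted p = 0.61), and without JagKO2 its adjusted p was 0.0145.

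Of the 15 tested genes after Dmtf1, 4 rose (Sema3e, Cacna2d1, Sema3c and Cd36), 3 fell (9330182L06Rik, Sema3a and Gm43719) and 8 were not called, with a median log2 fold change of 0.05. The protein-coding gene 9330182L06Rik (chr5:9266118-9481825) had 4.11, 3.35 and 2.38 CPM in JagKO2, JagKO3 and JagKO4, against 35.6, 38.5 and 30.1 CPM in Scramble replicates 1, 2 and 3. It lies just past Dmtf1 but within the rough bounds by which the stretch was picked on these libraries. Its call is therefore not independent of that choice. For this gene the groups were far apart (log2 fold change -3.41, SE 0.18, edgeR adjusted p = 9.14e-08). Gm7332 and Gm4959, the tested gene models on either side of it, had log2 fold changes of -0.35 (SE 0.23, adjusted p = 0.31) and 0.04 (SE 0.75, adjusted p = 0.976). Sema3a, a secreted guidance factor gene 4327.3 kb after the start of Abcb1b, had 65.7, 57.4 and 56.1 CPM in JagKO2, JagKO3 and JagKO4, against 106, 116 and 104 CPM in Scramble replicates 1, 2 and 3. It fell by 0.87 on the log2 scale (SE 0.08), with an edgeR adjusted p of 1.16e-05, and was chosen for naming after its values were seen. Over the whole of chromosome 5, 15.1% of 1052 tested genes fell and 8.17% rose, with a median log2 fold change of -0.07.

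**Figure D3:**
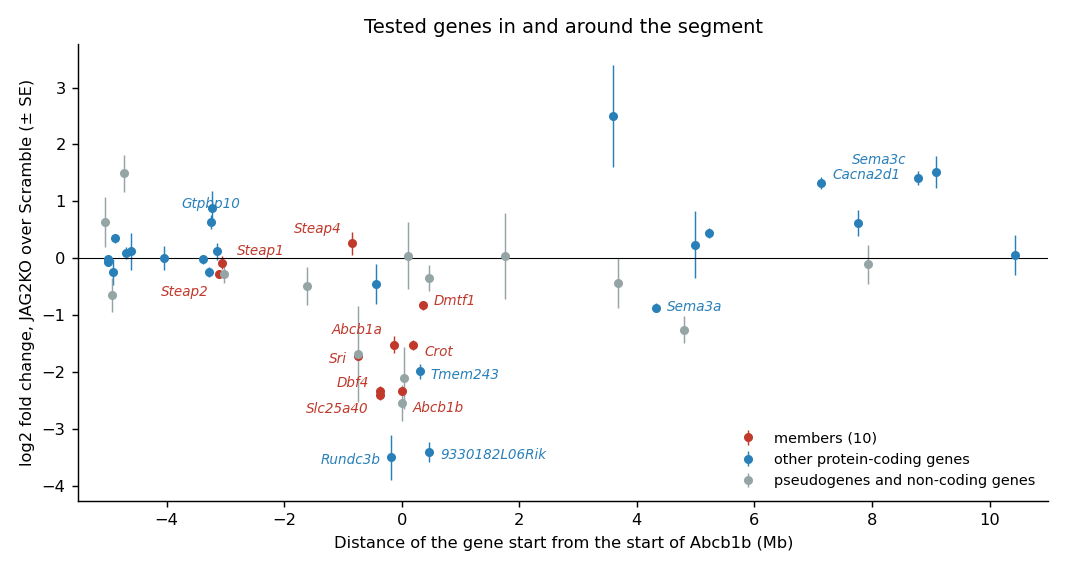
Log2 fold change of JAG2KO over Scramble ± SE (vertical axis) for each tested gene in the stretch and the 15 tested genes on either side, by the distance of its start from the start of Abcb1b in Mb (horizontal axis). From Sri to 9330182L06Rik most points lie between -0.83 and -3.50, whereas the Steap genes lie near 0. Genes farther out lie on both sides of 0, from -1.26 (Gm43719) to 2.50 (Sema3d).

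Among 11497 genes with a mean of at least 2 CPM, those whose profile over the 6 libraries was most like that of Abcb1b were Casd1, Dbf4 and Rgs16. The root mean square difference of their mean-centred log2 CPM was 0.0896, 0.0999 and 0.12. The profiles most like that of Dbf4 were Rgs16, Abcb1b and Casd1, at 0.0717, 0.0999 and 0.116. Casd1, a sialic acid O-acetyltransferase gene on chromosome 6, averaged 13.1 ± 1.39 CPM in JAG2KO and 66 ± 4.16 CPM in Scramble (SD, n = 3 each). Rgs16, a regulator of G protein signalling on chromosome 1, averaged 18.6 ± 1.53 CPM in JAG2KO and 96.2 ± 8.94 CPM in Scramble (SD, n = 3 each). With 6 libraries in 2 groups, this measure mostly reads the size of the group difference.

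The other genes of the pathways that the 10 genes work in were read from 7 lists that leave the 10 out. Over all 16049 tested genes, 11.8% rose and 12.5% fell. Of 16 other genes listed under drug efflux, among them the vault protein gene Mvp, which is not a pump, 10 could be tested. Abcc5, Abcg2, Mvp and Abcc4 rose and 6 were not called, with a median log2 fold change of 0.28. Abcg2, the breast cancer resistance protein that shares many substrates with P-glycoprotein, had 10.9, 8.78 and 9.35 CPM in JagKO2, JagKO3 and JagKO4, against 6.23, 5.58 and 5.09 CPM in Scramble replicates 1, 2 and 3. All JAG2KO libraries were higher (log2 fold change 0.78, SE 0.16, edgeR adjusted p = 0.00336). Abcc5, a nucleotide exporter gene, averaged 94.1 ± 3.38 CPM in JAG2KO and 73 ± 2.37 CPM in Scramble (SD, n = 3 each; log2 fold change 0.37, SE 0.06, edgeR adjusted p = 0.00138). Mvp, the major vault protein, averaged 154 ± 17.5 CPM in JAG2KO and 123 ± 1.9 CPM in Scramble (SD, n = 3 each; log2 fold change 0.33, SE 0.08, edgeR adjusted p = 0.00995). The call of Abcc4 (log2 fold change 0.26, adjusted p = 0.0303) was lost without JagKO3, JagKO4 or Scramble replicate 1 or 3, at adjusted p = 0.0735 to 0.11. Abcg2 is also made by endothelial cells, whose markers are given beside Abcb1a. Their part in its rise was not tested.

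All 26 genes of a broad list for origin licensing and firing, set beside Dbf4, could be tested. Of these 7 fell, Orc2, Cdt1, Mcm3, Orc6, Cdc45, Mcm5 and Cdc6, and 19 were not called, with a median log2 fold change of -0.12. Their changes were small beside that of Dbf4. Orc2, a subunit of the origin recognition complex, averaged 54.5 ± 1.09 CPM in JAG2KO and 73.5 ± 3.16 CPM in Scramble (SD, n = 3 each; log2 fold change -0.43, SE 0.07, edgeR adjusted p = 0.000648). Cdt1, which loads the MCM helicase, had a log2 fold change of -0.35 (SE 0.07, adjusted p = 0.00229), and Mcm3, a helicase subunit, of -0.30 (SE 0.06, adjusted p = 0.00277). Cdc7, the kinase that Dbf4 activates, had 29.3, 42.2 and 37.5 CPM in JagKO2, JagKO3 and JagKO4, against 45.1, 39.7 and 45.7 CPM in Scramble replicates 1, 2 and 3. The groups overlapped, and its log2 fold change of -0.26 (SE 0.12) did not pass (edgeR adjusted p = 0.141). The calls of Mcm5 and Cdc6 were lost without most single libraries: for Mcm5 without JagKO2, JagKO4 or Scramble replicate 2 or 3 (adjusted p = 0.0627 to 0.126), and for Cdc6 without any library but JagKO3 (adjusted p = 0.0661 to 0.169) and with no low-count filter (adjusted p = 0.0541).

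Of 14 genes of mitochondrial glutathione import and glutathione synthesis, set beside Slc25a40, Gsr and Slc7a11 fell and 12 were not called, with a median log2 fold change of -0.02. Gsr, the glutathione reductase, averaged 138 ± 19.2 CPM in JAG2KO and 199 ± 5.01 CPM in Scramble (SD, n = 3 each; log2 fold change -0.52, SE 0.09, edgeR adjusted p = 0.00108). Slc7a11, the cystine importer, had a log2 fold change of -1.02 (SE 0.29, adjusted p = 0.0228), and the call was lost without JagKO4 or Scramble replicate 1 or 2 (adjusted p = 0.0856, 0.0927 and 0.0555). Slc25a39, the paralog of Slc25a40, averaged 190 ± 15.6 CPM in JAG2KO and 173 ± 9.88 CPM in Scramble (SD, n = 3 each; log2 fold change 0.14, SE 0.07, edgeR adjusted p = 0.206).

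Of 16 sorcin partners and penta-EF-hand genes 13 could be tested. Capn1, Cacna1c and Atp2a2 fell, Ryr1 and Slc8a1 rose and 8 were not called, with a median log2 fold change of 0.03. Capn1, a calcium-dependent protease, averaged 222 ± 6.31 CPM in JAG2KO and 285 ± 6.93 CPM in Scramble (SD, n = 3 each; log2 fold change -0.36, SE 0.06, edgeR adjusted p = 0.000881). Cacna1c, a voltage-gated calcium channel subunit, had a log2 fold change of -0.41 (SE 0.10, adjusted p = 0.00973). Atp2a2, the calcium pump of the endoplasmic reticulum, had a log2 fold change of -0.24 (SE 0.06, adjusted p = 0.0123), and the call was lost without JagKO4 or Scramble replicate 2 (adjusted p = 0.0559 and 0.0634). Neither rise held throughout: Ryr1, a calcium release channel, was not called without JagKO4 or Scramble replicate 2 (adjusted p = 0.0856 and 0.0603). Slc8a1, a sodium-calcium exchanger, was not called without JagKO2 or Scramble replicate 2 or 3 (adjusted p = 0.0525, 0.079 and 0.0768).

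For Crot, 19 genes of the carnitine shuttle and of peroxisomal fatty acid oxidation were read, of which 17 could be tested. Crat and Cpt1a fell and 14 were not called, with a median log2 fold change of 0.05. Crat, the carnitine acetyltransferase, averaged 24.4 ± 2.17 CPM in JAG2KO and 32.7 ± 1.98 CPM in Scramble (SD, n = 3 each; log2 fold change -0.42, SE 0.09, edgeR adjusted p = 0.00648). Cpt1a, which forms acylcarnitine at mitochondria, had a log2 fold change of -0.28 (SE 0.08, adjusted p = 0.0317), and was called only without JagKO2 or Scramble replicate 3 among the libraries left out (adjusted p = 0.0709 to 0.166 without the others).

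Of 15 genes of the Arf and p53 axis that Dmtf1 works in, 13 could be tested. Trp53 rose, Ccnd3, Twist1 and Tbx3 fell and 9 were not called, with a median log2 fold change of 0.01. Trp53, which encodes p53, had 387, 378 and 372 CPM in JagKO2, JagKO3 and JagKO4, against 262, 275 and 281 CPM in Scramble replicates 1, 2 and 3. All JAG2KO libraries were higher (log2 fold change 0.47, SE 0.06, edgeR adjusted p = 0.00013). Ccnd3, a D-type cyclin, averaged 92.7 ± 5.32 CPM in JAG2KO and 116 ± 1.75 CPM in Scramble (SD, n = 3 each; log2 fold change -0.33, SE 0.06, edgeR adjusted p = 0.00308). Twist1, a basic helix-loop-helix factor, had a log2 fold change of -0.46 (SE 0.11, adjusted p = 0.0112) and was not called without JagKO4 (adjusted p = 0.0515). The call of Tbx3 was lost without Scramble replicate 1 or 2 (adjusted p = 0.0619 and 0.0674). Cdkn2a, the locus of Arf, and Cdkn2b were too scarce to test.

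Of 18 genes of metalloreduction and iron handling, set beside the Steap genes, 17 could be tested. Tfrc fell and 16 were not called, with a median log2 fold change of -0.04. Tfrc, the transferrin receptor, had 89.3, 115 and 104 CPM in JagKO2, JagKO3 and JagKO4, against 129, 130 and 145 CPM in Scramble replicates 1, 2 and 3. All JAG2KO libraries were lower (log2 fold change -0.39, SE 0.09, edgeR adjusted p = 0.00725). Steap3, the family member on another chromosome, averaged 45.5 ± 5.99 CPM in JAG2KO and 39.7 ± 0.629 CPM in Scramble (SD, n = 3 each; log2 fold change 0.20, SE 0.09, edgeR adjusted p = 0.154).

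**Figure D4:**
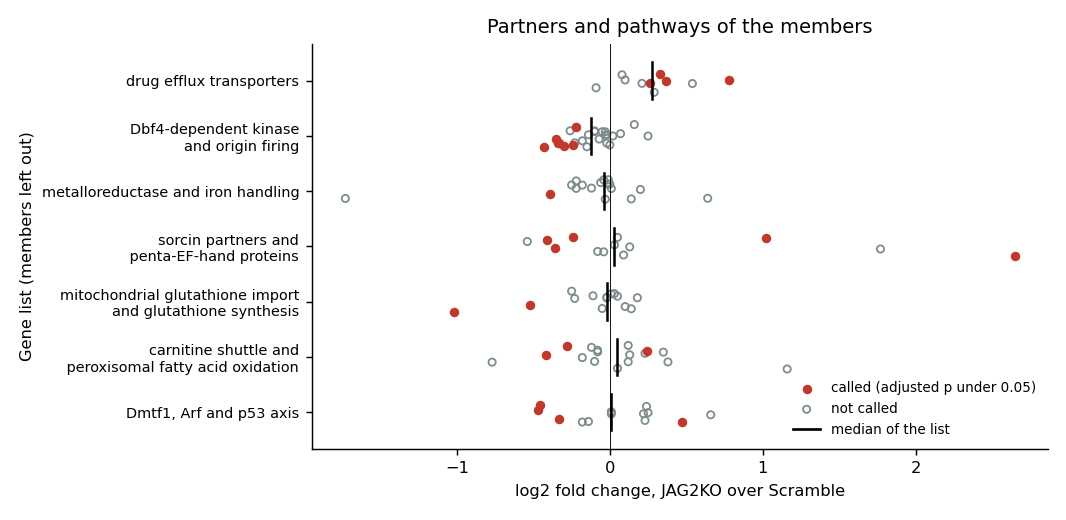
Log2 fold change of JAG2KO over Scramble (horizontal axis) of each tested gene in the 7 lists, with the 10 genes of the stretch left out; filled points passed an edgeR adjusted p under 0.05 and black bars are list medians. Most genes lie within 1 log2 unit of 0, with list medians from -0.12 for origin firing to 0.28 for drug efflux.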

How the data were processed

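PolyA RNA of 6 libraries was analysed, 3 JAG2KO and 3 Scramble. The authors deposited whole-number counts per Ensembl gene ID. Per the submitters' processing notes the tools were STAR 2.7.7a and HTSeq 0.11.2. Not given in the sources used here are the genome build, annotation, strand setting, read filters and handling of multiply mapped reads. Scramble columns carry the titles' numbers, whereas JAG2KO columns are numbered 2 to 4 and titles 1 to 3, so these were used by group alone. Of the IDs, 55154 matched GENCODE M21 (GRCm38) and 54587 also by version; the other 180 held 0.00193% of counts. Promoter windows come from RefSeq (GRCm38.p6), and all 10 genes matched.

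The test was that of edgeR 4.0.16 in R 4.3.3: filterByExpr (minimum count 10, minimum total 15), TMM factors, the quasi-likelihood F test between the groups on 4 residual degrees of freedom, with adjustment by Benjamini and Hochberg over all 16049 tested genes, called under 0.05. The procedure was tested on simulated data. CPM uses TMM-scaled library sizes, CPM per kb divides by merged exon length, and standard errors (SE) divide the log2 fold change by the square root of F. Totals of 37036772 to 43923565 counts limit low genes, and the worth of 3 counts covers counting error only. Transcripts were aligned with Biopython 1.88.

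The 10 genes and the lists were chosen with earlier results of these data known. Named were Jag2, the 10 genes, the other protein-coding genes inside the stretch, the 3 tested genes next to it on each side, up to 3 called genes of each list with the smallest p, and the 3 genes most like Abcb1b and Dbf4. Other named genes were chosen after their values were seen, among them Cdc7, Slc25a39, Steap3, the non-coding genes and remaining called genes. A result under this naming rule is not reported here. A planned protein alignment was replaced by the transcripts. Alternatives were RLE factors, library totals, DESeq2 1.42.0, limma-voom (limma 3.58.1), no filter, a minimum of 1 CPM in 3 libraries, Abcb1a and Abcb1b summed, and each library left out.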

Additional observations from a re-analysis of the deposited data

How the results depend on the processing

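No paired analysis was possible because the JAG2KO columns carry other numbers than the sample titles. Over 12 alternatives per gene, with Abcb1a and Abcb1b summed as 1 more, all 121 recomputed fold changes of the 10 genes stayed within 1 pooled SD. That SD is the spread within groups of the same 6 libraries, which leaving out a library can hardly exceed. The limit is thus loose, and nothing is concluded from it. Of the 10 genes 7 to 8 were called lower when each library was left out, with 7 without Scramble replicate 2, and 8 under every other setting. Over all genes 1356 to 2301 rose and 1349 to 2105 fell. Lists moved as follows, and the cause was not tested. Origin-firing genes called higher, 0 as reported, numbered 1 with no low-count filter, 1 with DESeq2 and 0 to 1 when each library was left out. Iron-handling genes called lower, 1 as reported, numbered 2 with library totals alone, 4 with no filter, 2 with DESeq2, 2 with limma-voom and 1 to 3 when each library was left out. Genes of the Arf and p53 axis called higher, 1 as reported, numbered 6 with no filter, 2 with the CPM filter, 3 with DESeq2 and 1 to 5 when each library was left out. Leaving out each library also gave 0 to 3 sorcin partners higher (2 as reported), 1 to 2 glutathione genes lower (2 as reported), and 0 to 2 higher and 1 to 2 lower in the carnitine and peroxisome list (1 and 2 as reported). Genes near the worth of 3 counts, such as Abcb4, cannot be compared at this depth.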

Other observations

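Runs of neighbouring genes called in the same direction occurred at other places too. This tally was added after the data were seen. Among 10774 protein-coding genes with a mean of at least 2 CPM, placed in order along the chromosomes, 29 runs of 5 or more consecutive genes were called in 1 direction in JAG2KO, 20 lower and 9 higher. The run from Sri to Sema3a held 11 genes, among them Rundc3b, Tmem243 and 9330182L06Rik. The median log2 fold change of this run was -1.99, and 9 of its genes were past 2-fold. The run spans 5.56 Mb, and genes under that CPM limit, such as Adam22 and Sema3d, are not in it. Sema3d, which lies between 9330182L06Rik and Sema3a, went the other way (log2 fold change 2.50, SE 0.90, edgeR adjusted p = 0.0637). Sema3d was scarce, with 36, 12 and 29 counts in JagKO2, JagKO3 and JagKO4, against 0, 2 and 12 counts in Scramble replicates 1, 2 and 3. It was called higher with no low-count filter, with DESeq2 and with limma-voom. Runs of 11 lower genes also lay on chromosome 6, from Mrpl19 to Wbp1 with a median of -0.51 and from Zfp800 to Atp6v1f with a median of -0.46. Only 2 of the 29 runs had a median of 2-fold or more, the run from Sri to Sema3a and a run of 7 homeobox genes from Hoxa2 to Hoxa10 on chromosome 6, higher in JAG2KO by a median of 1.08 on the log2 scale. These runs were chosen by the same calls that they count, so no test is given.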
